A study of Homo sapiens with 12 samples.

Results

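The NF-kB genes followed here are its subunits NFKB1, NFKB2, RELA and RELB, the inhibitors NFKBIA, NFKBIE and TNFAIP3, and TNFAIP2, ICAM1 and LTB, which the pathway is known to switch on. These 10 genes were chosen by name, with earlier results of these data known. Of the 57908 loci in the deposited expression table, 12 carry one of the names. Messenger RNA was sequenced from HCT116, an established human colorectal cancer cell line, treated for 24 h with 1000 nM doxorubicin (DOX), a topoisomerase II poison, or with PBS. The cells had been transfected 24 h earlier with a plasmid for FLAG-tagged NSE4A or SMC5, subunits of the SMC5/6 chromosome maintenance complex, or with a control plasmid that the sample titles call GFP and the series text calls the vector. This gives the groups NSE4-DOX, SMC5-DOX, GFP-DOX, NSE4, SMC5 and GFP, with 2 libraries in each and 12 in all. Every group was therefore transfected. The promoters of the plasmids are not given in the sources used here, and no deletion of the endogenous genes is described.

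NF-kB is a family of dimeric transcription factors built from Rel proteins. In resting cells the inhibitors IkB-alpha (NFKBIA) and IkB-epsilon (NFKBIE) hold the dimers in the cytoplasm. The IKK kinases, which act downstream of cytokine receptors and of DNA double-strand breaks, mark the inhibitors for destruction, and the freed dimers enter the nucleus. NFKBIA and TNFAIP3 (A20, a ubiquitin-editing enzyme) are themselves target genes and close a negative feedback loop.

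The promoters of 4 genes whose levels differed between treatments are shown first, because kappa-B elements are the sites that NF-kB is known to bind. RefSeq windows on GRCh38.p14, from 250 bases before to 50 bases after a transcript start, were found for 8 of the 10 genes, 13 windows in all. RELB and NFKBIE are named only. The 250 bases before the start are printed 5′ to 3′ for 4 genes, and capitals mark matches to the 10-letter kappa-B consensus or to GGAAATTCC, each searched on both strands.
ICAM1 (chr19:10270870-10271119, plus strand): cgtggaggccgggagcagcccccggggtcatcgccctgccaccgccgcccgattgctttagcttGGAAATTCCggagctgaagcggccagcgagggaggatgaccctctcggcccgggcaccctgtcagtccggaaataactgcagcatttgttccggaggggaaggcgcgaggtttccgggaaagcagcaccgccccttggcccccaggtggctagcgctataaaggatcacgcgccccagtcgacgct
TNFAIP2 (chr14:103123211-103123460, plus strand): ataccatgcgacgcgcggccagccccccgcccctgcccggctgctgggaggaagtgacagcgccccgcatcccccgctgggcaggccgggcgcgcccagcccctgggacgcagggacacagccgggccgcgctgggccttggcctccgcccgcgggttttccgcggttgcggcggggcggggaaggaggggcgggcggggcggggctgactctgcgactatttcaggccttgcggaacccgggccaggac
NFKBIA (chr14:35404750-35404999, minus strand): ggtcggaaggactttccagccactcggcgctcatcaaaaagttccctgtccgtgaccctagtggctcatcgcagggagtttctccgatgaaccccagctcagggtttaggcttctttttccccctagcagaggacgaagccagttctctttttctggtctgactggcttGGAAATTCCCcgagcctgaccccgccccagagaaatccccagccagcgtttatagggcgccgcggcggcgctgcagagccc
TNFAIP3 (chr6:137867009-137867258, plus strand): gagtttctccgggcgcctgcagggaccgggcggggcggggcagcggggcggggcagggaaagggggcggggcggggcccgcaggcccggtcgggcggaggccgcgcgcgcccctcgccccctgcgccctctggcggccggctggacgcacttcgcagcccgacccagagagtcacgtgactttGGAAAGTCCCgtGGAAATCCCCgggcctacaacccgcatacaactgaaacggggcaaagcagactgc

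ICAM1 holds GGAAATTCC 186 bases before the start and no match to the consensus. NFKBIA holds the same 9 letters 81 bases before the start, where they overlap a consensus match. TNFAIP3 holds a pair of adjacent consensus matches, at 67 and 55 bases before the start. No match to either motif lies in the TNFAIP2 window or in the 2 RELA windows, which says only that these letters are not in these windows. Among the other genes, the consensus matched in 1 of the 2 NFKB1 windows, 2 of the 3 NFKB2 windows and both LTB windows. At least 1 of the motifs was found in 6 of the 8 genes, against 7.34% of the 27305 genes in the table. The consensus matched 7 of the 13 windows, against 5.91% of all 35116 windows, and GGAAATTCC matched 3 of 13, against 0.461%. The genes were chosen as NF-kB genes, several of them as known targets, so their higher shares support nothing. Both LTB windows hold the same site, which is counted in each. A match is a description of the sequence and not a measured binding site.

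**Figure D1:**
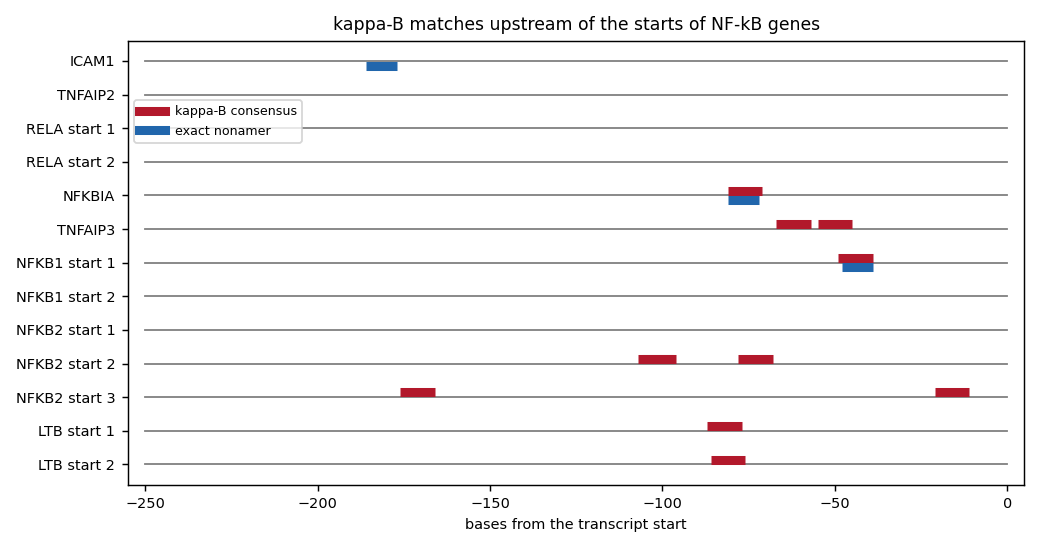
Positions of kappa-B matches in the 250 bases before each RefSeq transcript start of 8 NF-kB genes (13 windows, 1 line each), with bases from the start on the horizontal axis. Red blocks are matches to the kappa-B consensus and blue blocks exact matches to the 9-letter motif, and the TNFAIP2 line and both RELA lines are empty.

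The values are FPKM, fragments per kilobase of transcript scaled to library depth, as the authors deposited them. The 2 SMC5-DOX columns were nearly the same data, with 1091 identical values above 0 and a Pearson r of 0.99943, against 0 identical values and 0.98682 to 0.98805 in the 5 other pairs. Their mean was used as 1 sample, which leaves 11 samples. Estimated depth was 13 to 19.7 M fragments per library. The plasmid genes followed the labels: NSMCE4A, which encodes NSE4A, was at 4069 to 6287 FPKM in NSE4 and NSE4-DOX cells and at 32.6 to 89.4 FPKM in the others, and SMC5 was at 811 to 979 FPKM in SMC5 and SMC5-DOX cells and at 7.02 to 34.4 FPKM in the others. Of 8 epithelial markers, 7 reached 1 FPKM in DOX samples and 6 in PBS samples, and CDX1 was listed at 0 in all PBS samples. The summed 7 leukocyte markers were at 114.8 to 125.1 FPKM in DOX samples and 86.7 to 101.1 FPKM in PBS samples, carried by a locus that CD14 shares with NDUFA2, and their part in the results was not tested. The 5 fibroblast markers summed to 16.1 to 27.9 FPKM in DOX samples and 18.0 to 25.6 FPKM in PBS samples, mostly COL1A1, whereas PDGFRB was at 0.424 to 1.21 FPKM in DOX samples and 0.0131 to 0.158 FPKM in PBS samples, and its part in the results was not tested. The leukocyte marker PTPRC stayed at or below 0.0378 FPKM in every sample. The summed 3 endothelial markers were at 0.243 to 0.294 FPKM in DOX samples and 0.167 to 0.474 FPKM in PBS samples.

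NFKB2 was the most abundant of the 10 genes, with a mean of 107 FPKM over the 11 samples. The NFKBIE locus followed at 54.0 FPKM, TNFAIP2 at 49.4, RELA at 43.5, NFKBIA at 24.9, RELB at 14.5, NFKB1 at 7.34, TNFAIP3 at 5.13 and ICAM1 at 4.34 FPKM. LTB, the membrane-bound lymphotoxin ligand of the LTBR receptor, was near the floor at 0.283 FPKM. FPKM is scaled by transcript length, so these levels can be set side by side. The ranges of NFKB2 and RELB overlapped with those of no other gene. Those of the NFKBIE locus, TNFAIP2 and RELA overlapped, that of NFKBIA overlapped with TNFAIP2 and RELA, and those of NFKB1, TNFAIP3 and ICAM1 overlapped. ICAM1 had the widest range of the 9 tested loci, with its highest sample at 11.2 times its lowest, and the NFKBIE locus the narrowest, at 1.24 times.

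**Figure D2:**
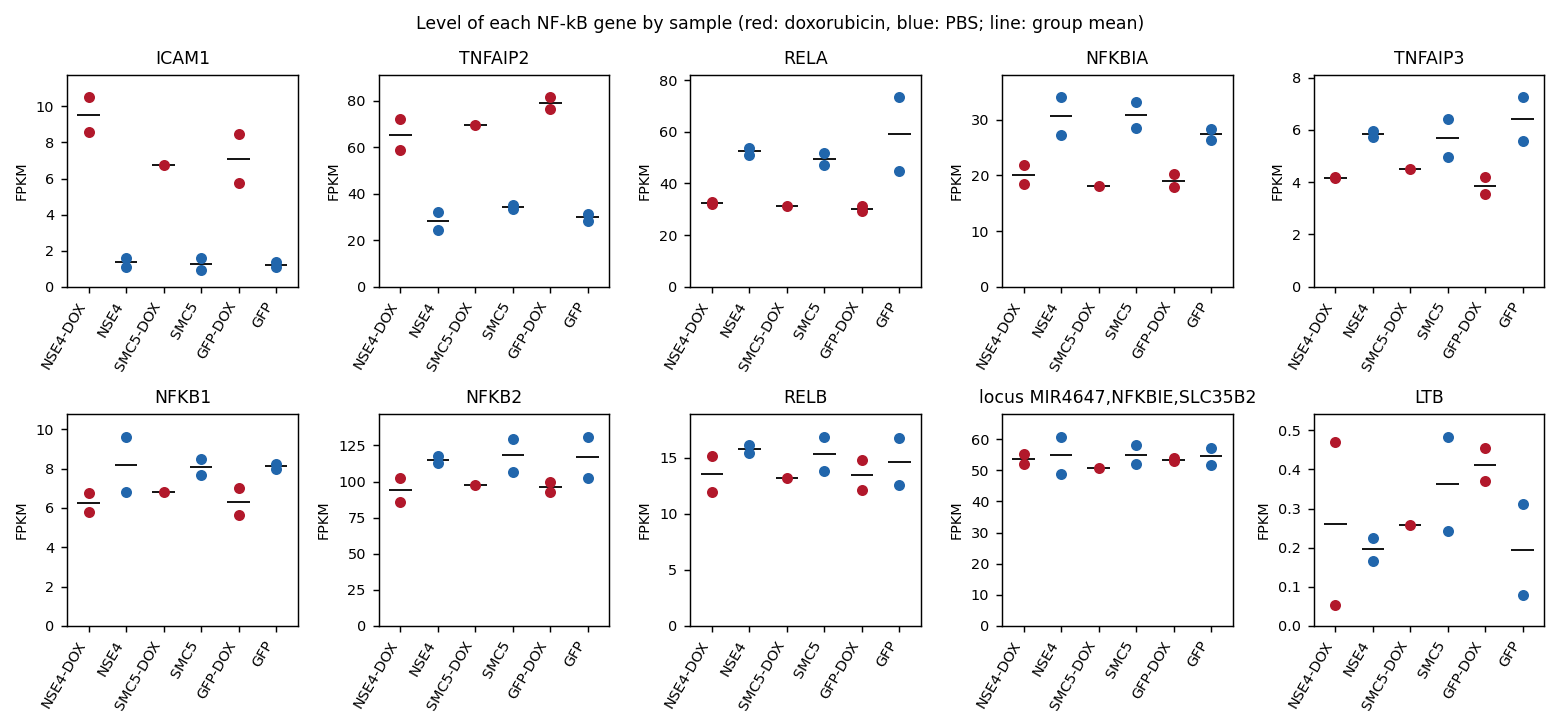
FPKM of each of the 10 NF-kB genes (1 panel each, linear axis from 0) in every sample of the 6 groups. Red points are DOX samples, blue points PBS samples and bars group means; SMC5-DOX is 1 point, the mean of its 2 near-identical columns. ICAM1 and TNFAIP2 lie higher in every DOX sample than in any PBS sample, and RELA, NFKBIA and TNFAIP3 lie lower.

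The first comparison asked how DOX-treated cells differed from PBS-treated cells carrying the same plasmid. ICAM1 and TNFAIP2 rose with DOX in all 3 plasmid backgrounds. NFKBIA fell in all 3, RELA in NSE4 and GFP cells, and TNFAIP3 in GFP cells. Differences were tested as log2(FPKM + 1) with limma, over the 15833 loci with at least 1 FPKM in at least 2 samples, and called at a Benjamini-Hochberg adjusted p of 0.05. Of the 12 loci 9 passed that filter. LTB and a pair of minor ICAM1 loci did not, and they were not tested. In NSE4 cells 4 of the 9 were called, 2 higher and 2 lower, where 30.2% of all loci tested were called, 16.3% higher and 13.9% lower. In SMC5 cells 3 of 9 were called, 2 higher and 1 lower, against 20.9% of all loci, 11% higher and 9.87% lower. In GFP cells 5 of 9 were called, 2 higher and 3 lower, against 31.1% of all loci, 17% higher and 14.1% lower. The members' share was above that of all loci in each background, but over 9 loci only, and nothing particular to NF-kB genes is read from it. The median log2 change of the 9 loci was −0.29 in NSE4 cells, −0.22 in SMC5 cells and −0.27 in GFP cells, beside 0.03, 0.02 and 0.02 over all loci tested. In bulk RNA, fewer cells expressing a gene and less of its RNA per cell cannot be told apart, and FPKM gives shares of the RNA and not amounts per cell. Separate cultures are not stated for the paired libraries, so a p-value here measures spread between samples that may be technical only.

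ICAM1 encodes an adhesion molecule that binds leukocyte integrins, and its promoter carries the exact 9-letter match shown above. It was at 8.59 and 10.5 FPKM in NSE4-DOX samples and 6.74 FPKM in the SMC5-DOX sample, and at 5.75 and 8.46 FPKM in GFP-DOX samples. In PBS it was at 1.07 and 1.62 FPKM in NSE4 cells, 1.57 and 0.936 FPKM in SMC5 cells and 1.35 and 1.10 FPKM in GFP cells. Every DOX sample was above every PBS sample, with 5.75 FPKM as the lowest DOX value and 1.62 FPKM as the highest PBS value. The mean in NSE4-DOX cells was 9.55 ± 1.36 FPKM, against 1.35 ± 0.385 FPKM in NSE4 cells (SD, n = 2 each), a ratio of 7.09. In SMC5 cells the ratio was 5.39, from 6.74 FPKM with DOX (n = 1) and 1.25 ± 0.447 FPKM with PBS (SD, n = 2). In GFP-DOX cells the mean was 7.10 ± 1.91 FPKM, against 1.22 ± 0.171 FPKM in GFP cells (SD, n = 2 each), a ratio of 5.80. On the log2(FPKM + 1) scale, which understates changes of low genes, ICAM1 rose by 2.17 (SE 0.22, adjusted p = 0.000345) in NSE4 cells, by 1.80 (SE 0.27, adjusted p = 0.00348) in SMC5 cells and by 1.85 (SE 0.22, adjusted p = 0.000725) in GFP cells. A further locus with the ICAM1 name read 0.315 to 0.554 FPKM in DOX samples and 0 to 0.202 FPKM in PBS samples. The other minor locus read 0.175 to 1.10 FPKM in DOX samples and was listed at 0 in PBS samples except 1 GFP sample at 0.258 FPKM. The file gives no strand for these minor loci. All 30 named neighbours of each in the table are minus-strand genes, whereas 24 of 26 neighbours of the principal ICAM1 locus are on the plus strand. The ITGAM leukocyte integrin, a partner of ICAM1, was at 0.920 to 3.05 FPKM in DOX samples and 0.261 to 1.27 FPKM in PBS samples, and its part in the result was not tested.

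TNFAIP2 was first described as a gene induced by tumour necrosis factor in endothelial cells. It was at 58.6 and 72.0 FPKM in NSE4-DOX samples, against 24.4 and 32.0 FPKM in NSE4 samples. The SMC5-DOX sample read 69.4 FPKM, against 35.3 and 33.3 FPKM in SMC5 samples, and the GFP-DOX samples read 76.6 and 81.5 FPKM, against 28.4 and 31.5 FPKM in GFP samples. The DOX and PBS samples did not overlap. TNFAIP2 rose to 2.32 times the PBS mean in NSE4 cells (log2 change 1.19, SE 0.15, limma adjusted p = 0.000861), 2.02 times in SMC5 cells (1.00, SE 0.18, adjusted p = 0.00759) and 2.64 times in GFP cells (1.37, SE 0.15, adjusted p = 0.000449). Its promoter window holds neither motif, unlike that of ICAM1. The ICAM1 and TNFAIP2 calls held when any 1 library of the comparison was left out (adjusted p 0.00165 to 0.0359). For SMC5-DOX, leaving out 1 column kept the other, near-identical one, so dependence on that sample could not be tested. They were lost in 1 setting, SMC5 cells compared alone with 1 residual degree of freedom (adjusted p 0.111 for ICAM1 and 0.101 for TNFAIP2).

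RELA encodes p65, the subunit that carries the transactivation domain of the classical dimer. It was at 32.6 and 32.0 FPKM in NSE4-DOX samples, against 51.1 and 53.9 FPKM in NSE4 samples. It was at 31.2 FPKM in the SMC5-DOX sample, against 47.1 and 51.6 FPKM in SMC5 samples, and at 31.1 and 29.2 FPKM in GFP-DOX samples, against 44.9 and 73.3 FPKM in GFP samples. The 5 DOX samples lay within 29.2 to 32.6 FPKM and below all 6 PBS samples. RELA fell to 61.6% of the PBS mean in NSE4 cells (log2 change −0.68, SE 0.19, limma adjusted p = 0.0297) and to 51.0% in GFP cells (−0.91, SE 0.19, adjusted p = 0.00921). In SMC5 cells it was at 63.3% of the PBS mean, a difference that missed the threshold (−0.64, SE 0.24, adjusted p = 0.0899). GFP replicate 2, at 73.3 FPKM, sets the size in GFP cells, where the log2 change without it was −0.56. The call in GFP cells was lost without GFP-DOX replicate 2 (adjusted p = 0.0553), and that in NSE4 cells without any 1 of its 4 libraries (adjusted p 0.0864 to 0.108).

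Among the other subunits, no call was made within any plasmid. NFKB1, which encodes the p105 precursor of p50, had a lowest, median and highest value of 5.62, 6.78 and 7.02 FPKM in DOX samples and 6.79, 8.12 and 9.63 FPKM in PBS samples. NFKB2, which encodes the p100 precursor of p52, had 85.8, 97.8 and 102.63 FPKM in DOX samples and 102.62, 115 and 131 FPKM in PBS samples. For NFKB1, NSE4 replicate 1 was the 1 PBS sample within the DOX range, and for NFKB2 it was GFP replicate 1. RELB, the partner of p52 in the alternative pathway, had 11.96, 13.2 and 15.2 FPKM in DOX samples and 12.6, 15.8 and 16.9 FPKM in PBS samples, which overlapped broadly. The log2 changes in NSE4, SMC5 and GFP cells were −0.33, −0.22 and −0.32 for NFKB1, −0.29, −0.26 and −0.27 for NFKB2 and −0.21, −0.20 and −0.11 for RELB, all with adjusted p above 0.05.

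NFKBIA was at 18.4 and 21.8 FPKM in NSE4-DOX samples, against 27.2 and 34.0 FPKM in NSE4 samples. It was at 18.1 FPKM in the SMC5-DOX sample, against 28.5 and 33.2 FPKM in SMC5 samples, and at 17.9 and 20.2 FPKM in GFP-DOX samples, against 26.4 and 28.4 FPKM in GFP samples. The highest DOX sample, at 21.8 FPKM, was below the lowest PBS sample. NFKBIA fell to 65.7% of the PBS mean in NSE4 cells (log2 change −0.58, SE 0.14, limma adjusted p = 0.0181), 58.5% in SMC5 cells (−0.74, SE 0.18, adjusted p = 0.0221) and 69.6% in GFP cells (−0.50, SE 0.14, adjusted p = 0.0306). The transcript of IkB-alpha was lower in the samples in which ICAM1 was higher, and a link between them was not tested. The call in GFP cells was lost without any 1 of the 4 libraries (adjusted p 0.0654 to 0.139) and with no filter on low values (adjusted p = 0.071). In NSE4 cells it was lost without NSE4 replicate 2 (adjusted p = 0.0967) or NSE4-DOX replicate 1 (0.106), and in SMC5 cells without SMC5 replicate 2 (0.0881).

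TNFAIP3 was at 4.16 and 4.19 FPKM in NSE4-DOX samples, against 5.73 and 5.95 FPKM in NSE4 samples. It was at 4.52 FPKM in the SMC5-DOX sample, against 4.96 and 6.41 FPKM in SMC5 samples, and at 3.56 and 4.18 FPKM in GFP-DOX samples, against 5.58 and 7.25 FPKM in GFP samples. All DOX samples were below all PBS samples, the nearest being 4.52 FPKM in SMC5-DOX and 4.96 FPKM in SMC5 cells. TNFAIP3 fell to 60.3% of the PBS mean in GFP cells (log2 change −0.60, SE 0.16, limma adjusted p = 0.0221). The changes of −0.40 in NSE4 cells (SE 0.16, adjusted p = 0.0887) and −0.27 in SMC5 cells (SE 0.19, adjusted p = 0.367) missed the threshold. The call in GFP cells was lost without GFP replicate 2 (adjusted p = 0.132), GFP-DOX replicate 1 (0.107) or GFP-DOX replicate 2 (0.0509).

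The NFKBIE locus is named MIR4647,NFKBIE,SLC35B2 in the table, so its value cannot be assigned to NFKBIE alone. It had a lowest, median and highest value of 50.8, 53.0 and 55.4 FPKM in DOX samples and 49.0, 54.7 and 60.9 FPKM in PBS samples. The DOX range fell within the PBS range. The log2 changes were −0.02 in NSE4 cells, −0.11 in SMC5 cells and −0.03 in GFP cells, with adjusted p above 0.05. LTB, which was not tested, was at 0.0536 to 0.470 FPKM in DOX samples and 0.0787 to 0.484 FPKM in PBS samples, and the groups overlapped.

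**Figure D3:**
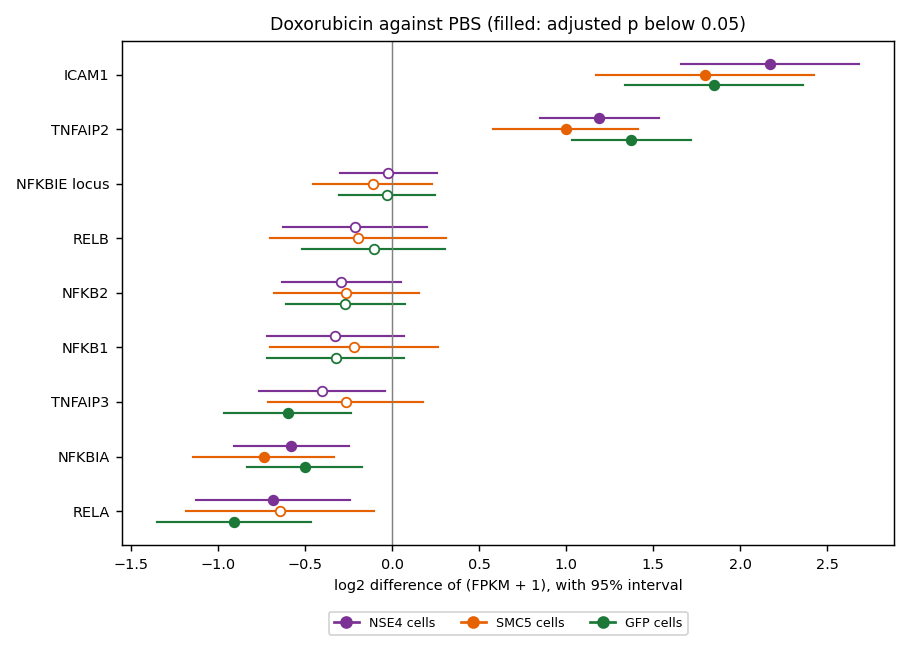
Change with DOX of the 9 tested NF-kB loci in NSE4, SMC5 and GFP cells, as limma log2(FPKM + 1) differences, DOX minus PBS, with 95% confidence intervals. ICAM1 (1.80 to 2.17) and TNFAIP2 (1.00 to 1.37) stand above 0 in all 3 backgrounds, and the point estimates of the other 7 loci lie below 0. The intervals of NFKB1, NFKB2, RELB and the NFKBIE locus include 0 in all 3, and that of TNFAIP3 does in SMC5 cells.

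The 3 backgrounds share no samples in these comparisons, but all take their spread from the same fit of all groups. SMC5-DOX, as 1 sample, adds nothing to that spread, so the calls are not independent. Across the 3 backgrounds ICAM1, TNFAIP2 and NFKBIA were called 3 times, RELA 2 times and TNFAIP3 1 time, and the other 4 loci 0 times. The 7 loci other than ICAM1 and TNFAIP2 all had negative log2 changes in each of the 3. Of all loci tested, 9.22% were called higher in all 3 backgrounds and 8.25% lower in all 3. All 5 DOX samples exceeded all 6 PBS samples for 2 of the 9 loci, against 22% of all loci tested, and lay below them for 3 of the 9, against 18.6%, so such a separation was common among all loci. A contrast averaging the 3 backgrounds, added after the values had been seen, called 6 of 9 loci, 2 higher and 4 lower, against 51.6% of all loci, 28% higher and 23.6% lower. In it ICAM1 rose by 1.94 (limma adjusted p = 1.55e-05) and TNFAIP2 by 1.19 (adjusted p = 2.38e-05). RELA (log2 change −0.74, adjusted p = 0.00112), NFKBIA (−0.61, adjusted p = 0.000713), TNFAIP3 (−0.42, adjusted p = 0.00715) and NFKB2 (−0.27, adjusted p = 0.036) fell. NFKB1 (−0.29, adjusted p = 0.0504), RELB (−0.17, adjusted p = 0.232) and the NFKBIE locus (−0.05, adjusted p = 0.578) did not pass. After adjustment for GC content all 9 loci were called, where 55.9% of all loci tested were called. These 3 then had limma adjusted p of 0.00919, 0.0046 and 0.0138, and nothing particular to NF-kB genes is read from that count. The NFKB2 call was lost when 1 library was left out in 8 of 12 cases, those of GFP replicate 2, both NSE4 replicates, SMC5 replicate 2, both GFP-DOX replicates, NSE4-DOX replicate 1 and the first SMC5-DOX column (adjusted p 0.0548 to 0.0846). The 12 cases count both near-identical SMC5-DOX columns. With no filter on low values the NFKB2 call was also lost (limma adjusted p = 0.0806).

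The second comparison asked whether overexpressed NSE4A or SMC5 altered the same genes. None of the 9 loci was called by limma in any of the 4 plasmid comparisons or the 2 interactions with DOX, and 0 of 9 had an unadjusted p under 0.05 in any of the 6. These comparisons share the GFP and GFP-DOX samples. Of all loci tested, 0.0442% were called for NSE4 against GFP cells, 0.0568% for NSE4-DOX against GFP-DOX cells, 0% for SMC5 against GFP cells and 0.0316% for SMC5-DOX against GFP-DOX cells. The interactions called 0.0316% of loci for NSE4 and 0.0189% for SMC5. At an unadjusted p under 0.05 the shares of all loci were 2.85%, 3.37%, 3.09%, 3.01%, 2.87% and 2.78% in that order.

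Between NSE4 and GFP cells in PBS the log2 differences ran from −0.13 for RELA to 0.15 for NFKBIA, with 95% confidence bounds over the 9 loci from −0.57 to 0.58. With DOX, they ran from −0.28 for TNFAIP2 to 0.39 for ICAM1, with bounds from −0.62 to 0.91. ICAM1 averaged 9.55 ± 1.36 FPKM in NSE4-DOX cells and 7.10 ± 1.91 FPKM in GFP-DOX cells (SD, n = 2 each). The difference did not pass the test (limma adjusted p = 1), and its interval reached 0.91. Between SMC5 and GFP cells in PBS the differences ran from −0.21 for RELA to 0.19 for TNFAIP2, with bounds from −0.66 to 0.53. With DOX, they ran from −0.19 for TNFAIP2 to 0.18 for TNFAIP3, with bounds from −0.67 to 0.63. The interaction, the DOX effect with the plasmid minus that in GFP cells, was 0.33 for ICAM1 with NSE4, and its interval reached 1.05. With SMC5 it was 0.33 for TNFAIP3 and −0.38 for TNFAIP2, the last with a lower bound of −0.92.

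**Figure D4:**
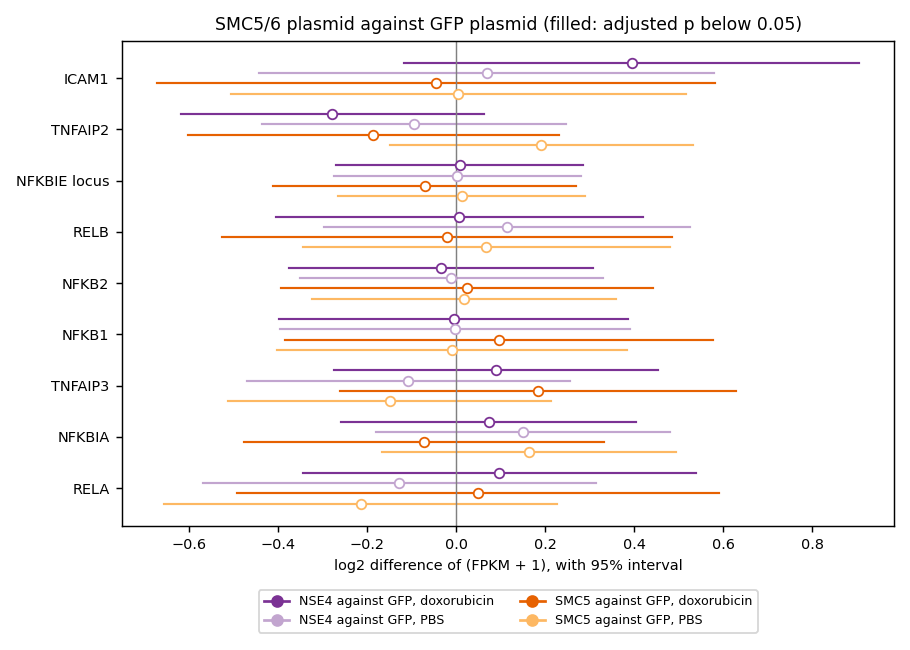
Differences of the 9 tested NF-kB loci between NSE4 or SMC5 cells and GFP cells, with and without DOX, as limma log2(FPKM + 1) differences with 95% confidence intervals. Every interval includes 0, and the ICAM1 difference between NSE4-DOX and GFP-DOX cells, 0.39, lies farthest from it.

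Further genes of the pathway were read from 5 lists of 76 genes in all. Calls in both directions were made in 4 of the 5 lists. Their counts stand against the shares of all loci tested, 30.2% called in NSE4 cells, 20.9% in SMC5 cells and 31.1% in GFP cells, and nothing particular to any list is read from them. Of 5 tested loci of other Rel and IkB proteins, 0 rose and 1 fell in NSE4 cells and none was called in SMC5 or GFP cells. The one was NFKBIZ, an atypical nuclear IkB protein, at 3.12 to 4.77 FPKM in DOX samples and 4.76 to 9.15 FPKM in PBS samples, with a log2 change of −1.12 (limma adjusted p = 0.00637) in NSE4 cells and values of −0.68 and −0.49 that did not pass in SMC5 and GFP cells. Of 10 tested loci of the IKK complex and activating kinases, 4 rose and 1 fell in NSE4 cells, 2 rose and 0 fell in SMC5 cells, and 4 rose and 1 fell in GFP cells. TAB3, an adaptor of the kinase TAK1, was at 11.9 to 13.6 FPKM in DOX samples and 5.73 to 6.72 FPKM in PBS samples, and rose by 0.88, 0.88 and 0.90 on the log2 scale in NSE4, SMC5 and GFP cells (adjusted p = 0.0011, 0.00463 and 0.000942). Its relative TAB2 was at 16.4 to 18.8 FPKM in DOX samples and 23.5 to 27.6 FPKM in PBS samples, and fell in NSE4 and GFP cells, a call lost in NSE4 cells without NSE4 replicate 1 or NSE4-DOX replicate 2 (adjusted p = 0.057 and 0.0621) and in GFP cells without any 1 library (0.0776 to 0.143). TBK1, an IKK-related kinase, has several tested loci under its name, so it weighs more than once in the counts and median of this list. A minor TBK1 locus reached 1.43 FPKM in DOX samples but at most 0.721 FPKM in PBS samples. That locus entered the test through its DOX samples alone and supports nothing. A further TBK1 locus read 3.32 to 3.94 FPKM in DOX samples and 1.75 to 2.09 FPKM in PBS samples. It was the TBK1 locus called in SMC5 cells. The largest TBK1 locus read 19.1 to 25.5 FPKM in DOX samples and 13.5 to 18.0 FPKM in PBS samples. In SMC5 cells its log2 change of 0.38 was not called. It rose by 0.68 in NSE4 cells (adjusted p = 0.00908, lost without NSE4-DOX replicate 2 at 0.0556) and by 0.45 in GFP cells (adjusted p = 0.0428), where the call was lost without either GFP library (0.0953 and 0.178) or GFP-DOX replicate 1 (0.211) under both other scalings (0.0965 and 0.0767), with no filter (0.0882) and with the groups compared alone (0.137).

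Of 19 tested adaptors and ubiquitin enzymes, 2 rose and 2 fell in NSE4 cells, 1 rose and 1 fell in SMC5 cells, and 2 rose and 2 fell in GFP cells. BIRC3, the ubiquitin ligase cIAP2 and a known NF-kB target, was at 1.91 to 2.99 FPKM in DOX samples and 5.53 to 9.78 FPKM in PBS samples. It fell in NSE4, SMC5 and GFP cells, with log2 changes of −1.44, −1.51 and −1.30 (limma adjusted p = 0.00326, 0.0101 and 0.0051), in the samples in which ICAM1 rose. MYD88, the adaptor of Toll-like and interleukin 1 receptors, was at 12.3 to 15.9 FPKM in DOX samples and 6.66 to 8.82 FPKM in PBS samples, and rose by 0.75, 0.69 and 0.86 on the log2 scale in NSE4, SMC5 and GFP cells (adjusted p = 0.0116, 0.0467 and 0.00621). That call was lost in NSE4 cells without NSE4 replicate 1 (adjusted p = 0.0693) or NSE4-DOX replicate 2 (0.0741), and in SMC5 cells without SMC5 replicate 1 (0.0956), SMC5 replicate 2 (0.144) or the second SMC5-DOX column (0.0655). CYLD, a deubiquitinase that restrains the pathway, was at 8.30 to 9.78 FPKM in DOX samples and 4.73 to 6.86 FPKM in PBS samples, and rose by 0.65 in NSE4 cells (adjusted p = 0.026, lost without any 1 library at 0.0507 to 0.122) and by 0.63 in GFP cells (adjusted p = 0.0284). ITCH, a ubiquitin ligase that works with A20, was at 15.4 to 18.2 FPKM in DOX samples and 19.9 to 23.6 FPKM in PBS samples, and fell in GFP cells (log2 change −0.41, adjusted p = 0.0257, lost without either GFP library at 0.113 and 0.0796 or GFP-DOX replicate 2 at 0.128) and in NSE4 cells (−0.38, adjusted p = 0.0347).

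Of 9 tested ligands and receptors, 0 rose and 3 fell in NSE4 cells, 1 rose and 2 fell in SMC5 cells, and 2 rose and 2 fell in GFP cells. IL1R1, the interleukin 1 receptor, was at 1.22 to 1.99 FPKM in DOX samples and 2.93 to 3.78 FPKM in PBS samples, with log2 changes of −0.69, −0.99 and −0.83 in NSE4, SMC5 and GFP cells (limma adjusted p = 0.0105, 0.00835 and 0.00449). The NSE4 call was lost without NSE4 replicate 2 (adjusted p = 0.0533) or NSE4-DOX replicate 1 (0.0635). TLR3, a receptor for double-stranded RNA, was at 2.14 to 4.12 FPKM in DOX samples and 0.428 to 1.10 FPKM in PBS samples, and rose in SMC5 cells (1.19, adjusted p = 0.0176, lost without SMC5 replicate 2 at 0.0692) and GFP cells (1.22, adjusted p = 0.00437). CD40 and LTBR, receptors of the TNF family that feed the alternative pathway, did not overlap between treatments, with CD40 at 12.6 to 14.8 FPKM in DOX samples and 17.1 to 20.8 FPKM in PBS samples and LTBR at 40.2 to 49.7 FPKM in DOX samples and 60.1 to 80.9 FPKM in PBS samples. Of all loci tested, 18.6% likewise lay lower in all DOX samples than in all PBS samples, so nothing particular to these receptors is read from it. CD40 fell in NSE4 cells (log2 change −0.60, adjusted p = 0.00402) and SMC5 cells (−0.45, adjusted p = 0.039, lost without SMC5 replicate 1 or 2 at 0.0636 and 0.137 or without the first SMC5-DOX column at 0.0648). LTBR fell in NSE4 cells (−0.61, adjusted p = 0.0249, lost without NSE4 replicate 2 at 0.126 or NSE4-DOX replicate 1 at 0.135) and GFP cells (−0.66, adjusted p = 0.0173, lost without GFP replicate 1 at 0.102 or GFP-DOX replicate 1 at 0.0947). TNF itself reached at most 0.196 FPKM in any sample.

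Of 11 tested target genes, 2 rose and 2 fell in NSE4 cells, 2 rose and 1 fell in SMC5 cells, and 3 rose and 1 fell in GFP cells. SOD2, the mitochondrial superoxide dismutase, was at 90.1 to 103 FPKM in DOX samples and 37.9 to 44.8 FPKM in PBS samples, and rose by 1.05, 1.04 and 1.25 on the log2 scale in NSE4, SMC5 and GFP cells (limma adjusted p = 0.000223, 0.00104 and 0.000102). CFLAR, an inhibitor of caspase-8, was at 10.6 to 15.4 FPKM in DOX samples and 6.36 to 8.83 FPKM in PBS samples, and rose by 0.67, 0.90 and 0.74 in NSE4, SMC5 and GFP cells (adjusted p = 0.0409, 0.0399 and 0.0277). Its call was lost in NSE4 cells without NSE4 replicate 1 or NSE4-DOX replicate 2 (adjusted p = 0.208 and 0.217), in SMC5 cells without SMC5 replicate 1 or 2 (0.135 and 0.0806), and in GFP cells without GFP replicate 1 (0.151), GFP-DOX replicate 1 (0.0582) or GFP-DOX replicate 2 (0.139). CXCL1, a neutrophil chemokine, was at 1.89 to 3.59 FPKM in DOX samples and 4.59 to 7.56 FPKM in PBS samples, and fell with log2 changes of −0.79, −1.26 and −0.81 (adjusted p = 0.0497, 0.0266 and 0.0445). In SMC5 cells that call was lost without SMC5 replicate 2 (adjusted p = 0.0968) and with no filter on low values (0.0729). CSF2, a growth factor of granulocytes and macrophages, was at 0.865 to 1.53 FPKM in DOX samples and 0.178 to 0.822 FPKM in PBS samples, with a log2 difference of 0.76 in GFP cells (adjusted p = 0.0297, lost without any 1 library at 0.0652 to 0.131 and under quantile scaling at 0.0571). No PBS sample reached 1 FPKM, so CSF2 entered the test through its DOX samples alone and this call supports nothing. PLAU, the urokinase protease, was at 14.1 to 18.2 FPKM in DOX samples and 19.6 to 25.9 FPKM in PBS samples, and fell in NSE4 cells (log2 change −0.64, adjusted p = 0.00367, lost with the NSE4 groups compared alone at 0.0538). IL6, CXCL10, CCL2, VCAM1 and SELE, textbook inflammatory targets, stayed under 1 FPKM in every sample. CXCL8, CXCL3 and CXCL2, chemokine genes of the same list, were not called, with CXCL8 at 7.85 to 9.10 FPKM in DOX samples and 6.63 to 9.40 FPKM in PBS samples. CXCL3 was at 1.08 to 3.02 FPKM in DOX samples and 1.14 to 2.88 FPKM in PBS samples, and CXCL2 at 0.612 to 1.86 FPKM in DOX samples and 1.22 to 1.87 FPKM in PBS samples. The median log2 changes in NSE4, SMC5 and GFP cells were −0.24, −0.15 and −0.30 for the other Rel and IkB proteins, 0.46, 0.22 and 0.30 for the kinases, 0.10, 0.05 and 0.09 for the adaptors, −0.27, −0.29 and −0.15 for ligands and receptors, and −0.11, −0.02 and 0.17 for the targets, beside 0.03, 0.02 and 0.02 over all loci tested.

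**Figure D5:**
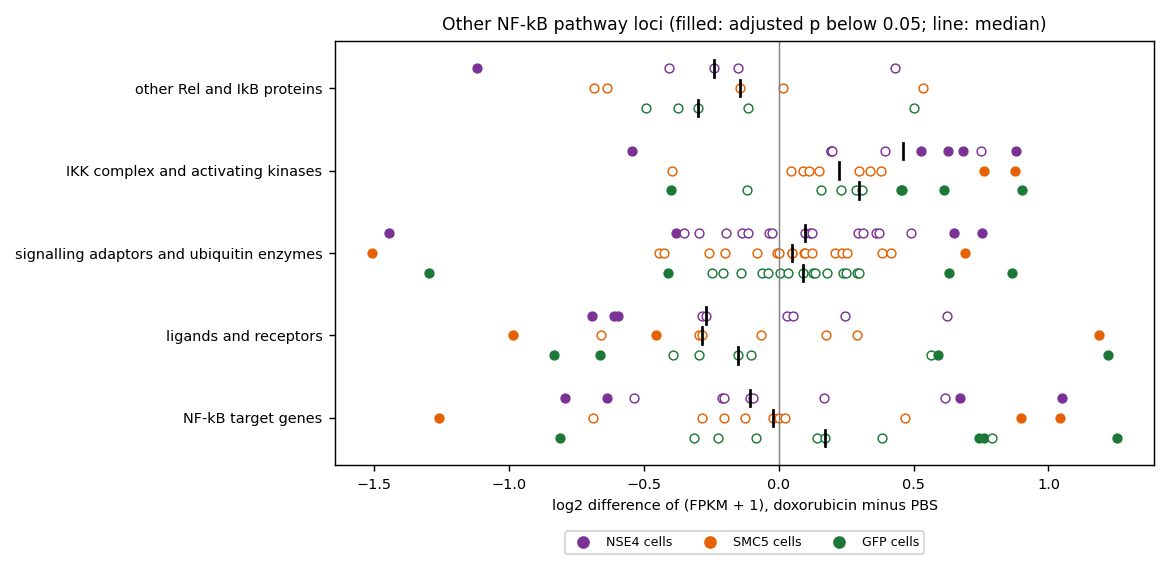
Log2(FPKM + 1) changes with DOX, DOX minus PBS, of the tested loci of 5 lists of NF-kB pathway genes in NSE4, SMC5 and GFP cells, 1 point per locus. Each list spans 0, with BIRC3 (−1.30 to −1.51) among the lowest points and SOD2 (1.04 to 1.25) among the highest.

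On the log2(FPKM + 1) scale over the 11 samples, ICAM1 had a Pearson r of 0.943 with TNFAIP2 and −0.902 with RELA, while RELA and TNFAIP3 had an r of 0.943. Among 12314 loci, the 5 most like ICAM1 were TEX13B (r 0.993), FIGNL1 (0.993), ELOC (0.992), PARP14 (0.991) and MFSD2A (0.991). The 5 most like the NFKBIE locus, which did not separate the treatments, were TMED1 (r 0.950), PARK7 (0.928), GPRIN1 (0.920), NT5C (0.908) and ACVR2A (0.907). These coefficients are descriptions over 11 samples that share treatments and, within a group, a plasmid, so any pair of loci that differ between DOX and PBS will correlate. Replicate 2 read higher than replicate 1 in all 5 groups with separate replicates for NFKB1, NFKBIA, the NFKBIE locus, RELB and TNFAIP3.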

How the data were processed

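The 12 libraries hold messenger RNA of HCT116 cells. The authors deposited a table of FPKM values, 57908 loci by 12 columns, made with TopHat and Cufflinks per the submitters' processing notes; versions, genome build and strand use are not given in the sources used here. All 12 columns were used. Library depth was inferred from the FPKM worth of 1 fragment in loci with transcripts of 1500 bases or more. The analysis used log2(FPKM + 1) values of loci with at least 1 FPKM in at least 2 of 11 samples, with limma 3.58.1 in R 4.3.3, all 6 groups in 1 fit, an expression trend for the prior variance and 5 residual df. P-values were adjusted over all 15833 loci within a comparison, at a threshold of 0.05. Python 3.11.15 with numpy 2.4.6, pandas 2.3.3 and matplotlib 3.10.9 made tables and figures. The fit was also run on simulated data with independent noise and changes in the GFP-DOX group only. That setting is simpler than the data, and no conclusion is drawn from it. GENCODE 29 and RefSeq tables gave gene names, GC content and promoter windows, and no coordinates of the deposited loci are given. The members and lists were chosen with earlier results of these data known. Every member is named; from each list up to 3 called loci of smallest p per DOX comparison and up to 2 per plasmid comparison qualify for naming, and TNF, IL6, CXCL10, CCL2, VCAM1, SELE, CXCL8, CXCL3 and CXCL2 were named after their values were seen. Of the listed genes 8 share a locus with another coding gene and were left out. The alternatives were quantile and median-ratio scaling, other filters, a pseudocount of 0.1, the replicate number as a block, the compared groups alone, 12 separate columns, GC adjustment and leaving out each library. Leaving out 1 SMC5-DOX column kept the other, near-identical one, so the SMC5-DOX sample itself was never left out.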

Additional observations from a re-analysis of the deposited data

How the results depend on the processing

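Among members and pathway genes for which alternatives were run, no called change reversed its direction. Alternatives were not run for the calls of CYLD in GFP cells, ITCH in NSE4 cells and CXCL1 in NSE4 and GFP cells. Nor were they run for calls of the TBK1 loci other than the largest. No loss could therefore be listed for those calls, and they are not shown to be stable. The number of NF-kB loci called with DOX was 5 in GFP cells, 6 after GC adjustment, 3 with no filter on low values, 3 with the compared groups alone and 2 to 4 with 1 library left out. In NSE4 cells it was 4, with 7 after GC adjustment and 2 to 3 with 1 library left out. In SMC5 cells it was 3, with 5 after GC adjustment, 0 with the compared groups alone (3 samples, 1 residual degree of freedom) and 2 to 3 with 1 library left out. After GC adjustment NFKB2 was called lower in NSE4, SMC5 and GFP cells (limma adjusted p = 0.0105, 0.0417 and 0.0136) and RELB in NSE4 cells (0.0343), where 36.2%, 27.4% and 37.1% of all loci were called. RELA was then also called lower in SMC5 cells (limma adjusted p = 0.0357) and TNFAIP3 in NSE4 cells (0.0367), so their limits to certain backgrounds depend on the processing. GC content of the longest transcript was 65.4% for RELB and 62.4% for NFKB2, against a median of 48.9%, and its part in these changes was not tested. Averaged over plasmids the count was 6, with 9 after GC adjustment, where 55.9% of all loci were called. It was 0 in all plasmid comparisons and interactions under every alternative. With the replicate block the counts were 5 in NSE4, 3 in SMC5, 5 in GFP cells and 8 averaged. Correlations of replicate differences between groups were −0.039 to 0.073, below the 0.1 set for pairing, so the block was not used as the design. Replicate 1 minus replicate 2 did follow GC content with 1 sign in all 5 groups (Spearman −0.376 to −0.196 across loci), and replicate 2 was higher in 5 of 5 groups for 5 members. Over members and alternatives, 277 values stayed on their side of the threshold, 33 calls were lost and 15 gained. Over the named pathway genes 690 stayed and 76 were lost. Besides those given above, with the compared groups alone these were every pathway call named in SMC5 cells for which alternatives were run, CFLAR, CYLD, IL1R1, LTBR, MYD88 and TAB2 in NSE4 cells (0.0545 to 0.133) and CFLAR, ITCH and TAB2 in GFP cells (0.0551 to 0.0648). With no filter they were CFLAR in all 3 (0.0817 to 0.109), LTBR in NSE4 and GFP cells (0.0716 and 0.0545), CYLD in NSE4 cells (0.0696) and MYD88 in SMC5 cells (0.0953). With the compared groups alone, RELA and TNFAIP3 were lost in GFP cells (adjusted p = 0.084 and 0.0884) and NFKBIA in NSE4 cells (0.0878), and with no filter RELA in NSE4 cells (0.0871) and TNFAIP3 in GFP cells (0.0528). The count of all loci called was 4919 in GFP cells (2956 to 5913), 4780 in NSE4 cells (2437 to 5809), 3310 in SMC5 cells (0 to 5845, with 0 for the groups alone) and 8172 averaged (6978 to 9767). For plasmids it was 7 for NSE4 (1 to 11), 9 for NSE4-DOX (1 to 100, the most with no filter), 0 for SMC5 (0 to 11) and 5 for SMC5-DOX (0 to 539, the most with no filter), each against the matching GFP cells. For interactions it was 5 for NSE4 (0 to 71) and 3 for SMC5 (1 to 431). The cause of these shifts was not tested. LTB and the minor ICAM1 loci lie too low to compare at this depth.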
